A study of Mus musculus with 6 samples.

Results

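The myeloid MS4A genes were followed in bulk RNA sequencing of mouse peripheral blood cells labelled as monocytes. The 7 genes Ms4a4a, Ms4a4c, Ms4a6b, Ms4a6c, Ms4a6d, Ms4a7 and Ms4a14 were taken by symbol from the 56832 genes of each count file, which hold 21 rows with an Ms4a symbol in all. The thrombocytopenic group (3 libraries) came from PF4cre-iDTR mice: Cre driven by the megakaryocyte promoter of Pf4 there turns on the diphtheria toxin receptor. The control group (3 libraries) was wild type. Diphtheria toxin is given as the treatment of both groups, so genotype and platelet state cannot be told apart. Age, sex and strain were not given in the sources used here, nor whether each library came from its own animal, so the p-values reflect the spread from library to library alone, and this may be technical.

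MS4A proteins cross the membrane several times and sit beside other receptors, whose signalling or trafficking they modify. The best known is CD20 of B cells, encoded by Ms4a1, and another, encoded by Ms4a2, is the beta chain of the high-affinity IgE receptor of mast cells and basophils. A further branch is made by monocytes and macrophages. In human cells MS4A4A is a macrophage protein tied to dectin-1 signalling, and variants near MS4A4A and MS4A6A are linked to soluble TREM2 and to Alzheimer disease. In mice, some MS4A proteins also serve as chemoreceptors of specialised olfactory neurons.

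Within the myeloid MS4A family, Ms4a4a was 1.37-fold higher in thrombocytopenic than in control libraries, while Ms4a14 was 2.51-fold lower and Ms4a7 fell by 23.2%. Ms4a4c was 1.13-fold lower. The 3 Ms4a6 genes differed by under 1.1-fold in either direction. All 7 members passed the filter on low counts. Of these, 6 differed at an adjusted p under 0.05 by edgeR's quasi-likelihood test, 2 higher and 4 lower, and Ms4a6c did not. The same test called 45.1% of the 12488 genes tested (22.4% higher, 22.7% lower). Called differences of at least 1.3-fold were seen in 3 members, against 16.1% of all genes. The median absolute log2 fold change was 0.17 over the members and 0.15 over all tested genes. Summed over the members, the level was 2757 to 2906 CPM (counts per 1000000, scaled by TMM factors) in thrombocytopenic libraries and 2808 to 2927 CPM in control libraries, so the ranges of the family total overlapped. In bulk RNA a smaller number of cells that make a transcript and less of it per cell cannot be told apart.

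**Figure D1:**
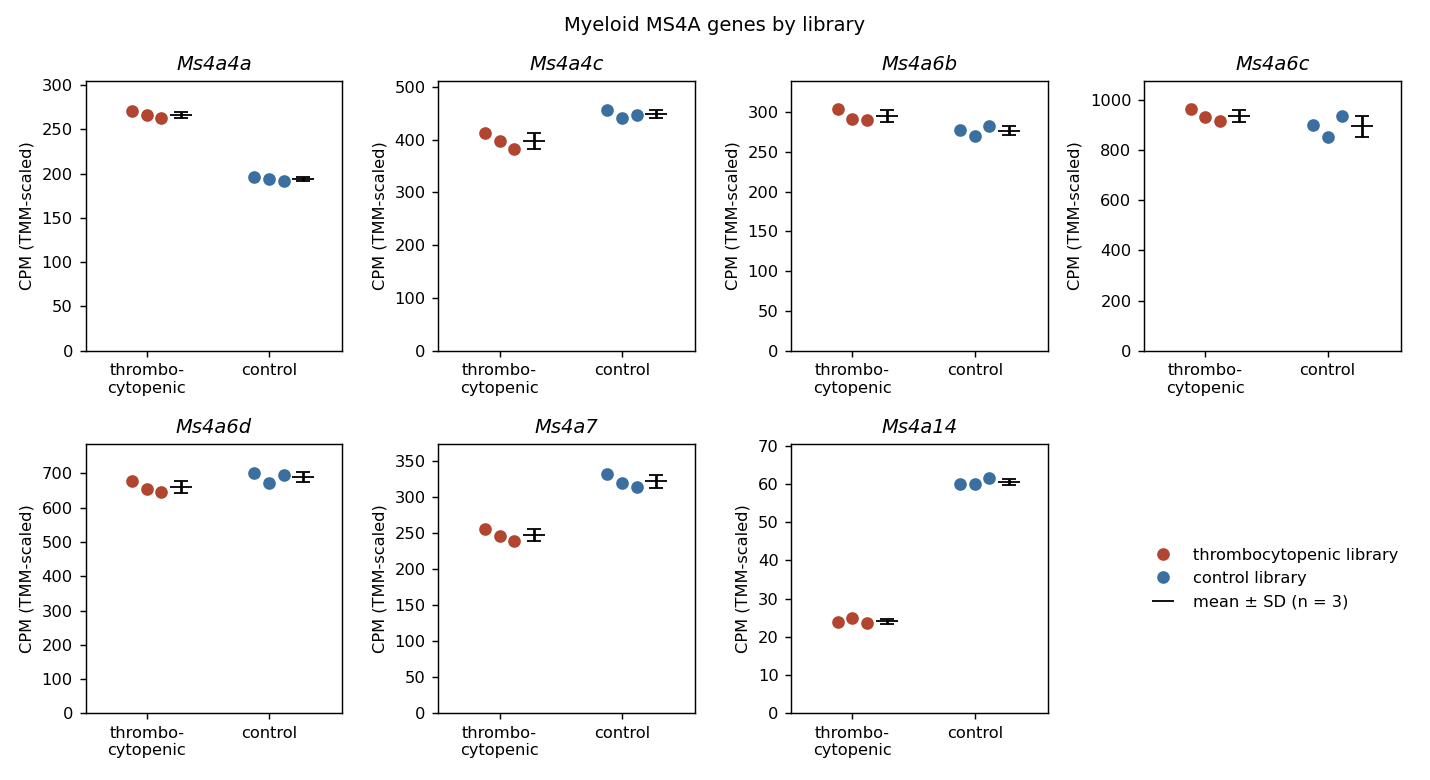
Level of each of the 7 myeloid MS4A genes in CPM scaled by TMM factors (y axis, from 0) in the 3 thrombocytopenic and 3 control libraries (points), with mean ± SD at the right of each group. The groups stand apart for Ms4a4a, Ms4a4c, Ms4a6b, Ms4a7 and Ms4a14 and overlap for Ms4a6c and Ms4a6d. Ms4a14, at 24.1 CPM against 60.5 CPM, has the largest fold.

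Ms4a4a, the macrophage member whose human counterpart is tied to dectin-1 and TREM2, was at 270.1, 266 and 263 CPM in thrombocytopenic libraries, against 197, 194 and 191 CPM in control libraries. Every thrombocytopenic library lay above every control library. The log2 fold change was 0.46 (SE 0.028, n = 3 in each group; edgeR adjusted p = 1.84e-20). The coefficient of variation within a group was 1.36% in thrombocytopenic and 1.34% in control libraries. Groups did not overlap for 5 of the 7 members, against 51.3% of all tested genes.

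Ms4a14, whose function is little known and whose coding sequence is much longer than those of the others, had the largest difference of the 7 members. It was at 23.9, 24.9 and 23.6 CPM in thrombocytopenic libraries, against 60.0, 60.0 and 61.5 CPM in control libraries. The log2 fold change was -1.33 (SE 0.045; edgeR adjusted p = 2.16e-31), and the libraries of each group lay close together. Ms4a14 ranked 261st of 12488 tested genes by absolute fold change, and the next member, Ms4a4a, ranked 2024th.

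Ms4a7, a gene of macrophages that in mice marks brain macrophages of bone marrow origin, was at 256, 246 and 239 CPM in thrombocytopenic libraries, against 331, 319 and 314 CPM in control libraries. No libraries of the groups overlapped, and the log2 fold change was -0.38 (SE 0.029; edgeR adjusted p = 8.97e-17). Ms4a4c, a myeloid paralog of Ms4a4a, was at 412, 398 and 382 CPM in thrombocytopenic libraries, against 456, 441 and 447 CPM in control libraries. The groups were apart here too, with a smaller log2 fold change of -0.17 (SE 0.027; edgeR adjusted p = 3.68e-07). Ms4a4a and Ms4a4c therefore differed in opposite directions in the same libraries.

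The 3 Ms4a6 genes showed the smallest differences of the family. Ms4a6b was at 303, 292 and 290.0 CPM in thrombocytopenic libraries, against 277, 270.0 and 282 CPM in control libraries. The groups did not overlap, and the log2 fold change was 0.095 (SE 0.028; edgeR adjusted p = 0.00382). Ms4a6c, a close paralog of Ms4a6b, was at 962, 931 and 914 CPM in thrombocytopenic libraries, against 898, 851 and 935 CPM in control libraries. Control replicate 3 lay above thrombocytopenic replicates 2 and 3, and the gene missed the threshold (log2 fold change 0.065, SE 0.028; edgeR adjusted p = 0.0525). It did pass without thrombocytopenic replicate 3 (log2 fold change 0.082; adjusted p = 0.0231) and without control replicate 3 (0.096; adjusted p = 0.00915), while without control replicate 2 the log2 fold change was 0.026 (adjusted p = 0.488). Ms4a6d, which in mouse macrophages pairs with the receptor VSIG4, was at 679, 654 and 646 CPM in thrombocytopenic libraries, against 701, 673 and 696 CPM in control libraries. Thrombocytopenic replicate 1 lay above control replicate 2, so the groups overlapped. The log2 fold change was -0.065 (SE 0.025; edgeR adjusted p = 0.0340). This call was lost with DESeq2 (adjusted p = 0.0619), without thrombocytopenic replicate 2 (0.0978) or 3 (0.182), and without control replicate 1 (0.134) or 3 (0.119). Across the 13 alternative settings its adjusted p ranged from 0.00277 to 0.182, and that of Ms4a6c from 0.00915 to 0.488.

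**Figure D2:**
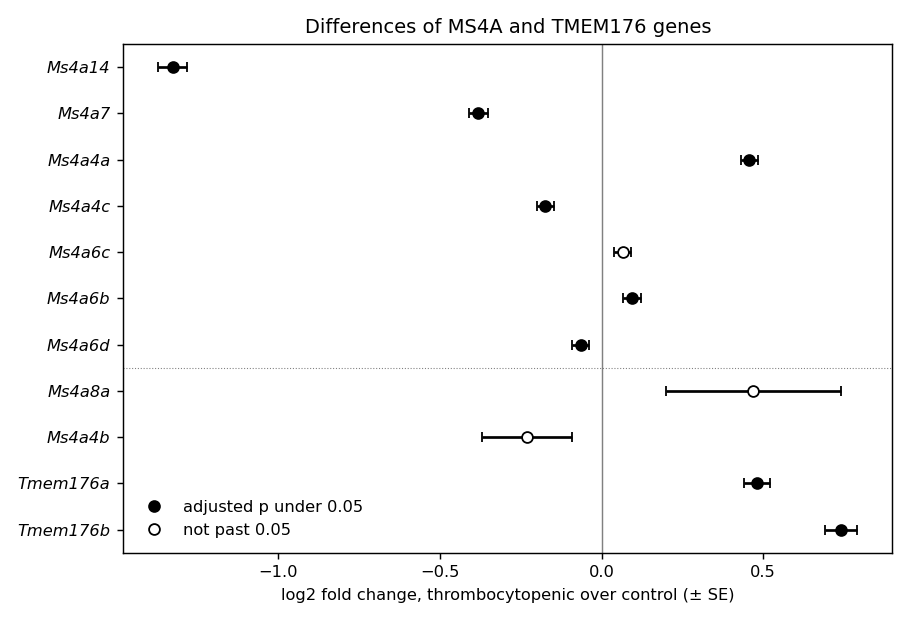
Log2 fold change of thrombocytopenic over control libraries (x axis, ± SE) for the 7 members in the order of their genes on the chromosome (above the dotted line), and for Ms4a8a, Ms4a4b, Tmem176a and Tmem176b (below it). Filled points passed an adjusted p of 0.05; values run from -1.33 for Ms4a14 to 0.46 for Ms4a4a among the members, with the Ms4a6 genes near 0.

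The upstream sequences are shown for the members at either end of this range and for Ms4a6b and Ms4a6c, whose ratio overlapped between the groups. Sequences are from RefSeq (GRCm38.p6), 250 bases before the annotated start, 5′ to 3′ on the gene's strand; 6 of the 7 members were in the table, and Ms4a6d was not. Searched on both strands were the letters AGGAAGT (PU.1), GAAANNGAA (IRF), TTCNNNGAA (GAS), TGANTCA (AP-1) and TGCTGAC (a MAF half-site). In the 32851 upstream windows of the table these occurred in 7.69%, 7.13%, 7.02%, 6.75% and 3.81%, in that order. In Ms4a6b and Ms4a6c the capitals mark the longest run that both share, 48 bases, which begins 118 bases before the start of Ms4a6b and 49 bases before that of Ms4a6c. In Ms4a14 they mark a match to AP-1, which reads on both strands; the Ms4a4a window held none of the 5 motifs and has no capitals.
Ms4a6b, chr19:11518309-11518558, plus strand: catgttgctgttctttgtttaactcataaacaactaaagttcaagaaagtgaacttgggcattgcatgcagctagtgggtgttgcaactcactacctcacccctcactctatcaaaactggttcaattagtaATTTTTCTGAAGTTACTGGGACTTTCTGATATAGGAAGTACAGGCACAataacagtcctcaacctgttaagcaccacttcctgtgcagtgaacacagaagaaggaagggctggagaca
Ms4a6c, chr19:11469118-11469367, plus strand: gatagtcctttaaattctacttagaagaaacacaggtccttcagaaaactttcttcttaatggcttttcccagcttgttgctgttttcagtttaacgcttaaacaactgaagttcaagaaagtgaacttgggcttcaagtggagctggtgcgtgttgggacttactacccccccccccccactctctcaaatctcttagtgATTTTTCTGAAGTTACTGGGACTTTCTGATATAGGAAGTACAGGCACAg
Ms4a14, chr19:11314455-11314704, minus strand: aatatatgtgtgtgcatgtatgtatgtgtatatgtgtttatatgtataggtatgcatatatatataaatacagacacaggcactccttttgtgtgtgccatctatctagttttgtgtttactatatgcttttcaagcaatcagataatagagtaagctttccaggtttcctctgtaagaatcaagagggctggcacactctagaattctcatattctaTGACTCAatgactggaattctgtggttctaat
Ms4a4a, chr19:11375238-11375487, plus strand: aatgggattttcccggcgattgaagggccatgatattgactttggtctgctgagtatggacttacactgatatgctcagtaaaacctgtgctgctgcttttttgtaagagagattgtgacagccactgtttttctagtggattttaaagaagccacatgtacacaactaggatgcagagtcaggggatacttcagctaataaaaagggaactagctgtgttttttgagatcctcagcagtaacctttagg

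The shared run holds 1 match to the PU.1 letters, and a match to the IRF letters, gaaagtgaa, lies further upstream in both genes outside that run. Ms4a6b has a second PU.1 match, on the opposite strand, 43 bases before its start. The windows of the upper and lower extremes, Ms4a4a and Ms4a14, had a longest shared run of 7 bases. Such a length was ordinary here: apart from Ms4a6b with Ms4a6c, every pair of windows had a longest shared run of 7 to 9 bases. Among these were Ms4a14 and Ms4a7, both lower, with 9 or 8 bases by start site of Ms4a7. Of the 2 start sites listed for Ms4a7, both held an IRF match and the second also an AP-1 match, while the Ms4a4c window held none of the 5 motifs. A match is a description of letters and not a binding site, and binding was not measured.

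Some of the members, the Ms4a6 genes above all, are close relatives, and this bears on how reads are assigned. Coding sequences of the GENCODE M21 annotation were aligned globally, with gaps counted as differences. Ms4a6b was 80.6% identical to Ms4a6d and 75.8% to Ms4a6c, and Ms4a4a was 62.7% identical to Ms4a4c. With gaps left out the order of the first 2 turned, at 85% for Ms4a6d and 88.5% for Ms4a6c, whose coding sequence is shorter. Of all windows of 50 bases in the annotated transcripts, 10.5% of those of Ms4a6c, 8.19% of Ms4a4c, 3.57% of Ms4a6b, 2.54% of Ms4a6d and 0.306% of Ms4a7 also occur in the transcripts of another gene. The main partner of Ms4a6c was Ms4a6b, and that of Ms4a4c was Ms4a4b. None of the windows of Ms4a4a and Ms4a14, the members with the largest changes in each direction, occurs elsewhere. How reads that fit several genes were counted is not given in the sources used here, so the small differences of the Ms4a6 genes and of Ms4a4c are uncertain for this reason.

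Levels can be compared between members only per length of transcript, here as CPM per kilobase of annotated exon (GENCODE M21, which may not be the annotation of the count files). On this scale Ms4a6c was at 456 ± 11.8 in thrombocytopenic and 436 ± 20.5 in control libraries (mean ± SD, n = 3), and Ms4a6d at 380.2 ± 10.04 and 398 ± 8.55. Ms4a4a was at 319 ± 4.34 in thrombocytopenic and 232 ± 3.10 in control libraries, and Ms4a4c at 227 ± 8.64 and 256 ± 4.38. Ms4a4a therefore stood above Ms4a4c in thrombocytopenic libraries and below it in control libraries. Ms4a6b (65.8 ± 1.61 in thrombocytopenic, 61.6 ± 1.33 in control) and Ms4a7 (55.4 ± 1.93 and 72.2 ± 1.998) changed places in the same way. Ms4a14 was lowest in both groups, at 5.94 ± 0.162 in thrombocytopenic and 14.9 ± 0.217 in control libraries. The ranges of neighbours in these orders did not overlap in either group, but the order rests on the exon lengths, from 836 bases for Ms4a4a to 4485 for Ms4a6b.

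As a share of the counts of all 7 members, which does not depend on the scaling of libraries, Ms4a4a took 9.43 ± 0.123% in thrombocytopenic and 6.72 ± 0.178% in control libraries. Ms4a7 took 8.73 ± 0.072% in thrombocytopenic and 11.1 ± 0.361% in control libraries, and Ms4a14 took 0.855 ± 0.031% and 2.10 ± 0.040%. The share of Ms4a6c was 33.1 ± 0.032% in thrombocytopenic and 31.0 ± 0.849% in control libraries. For all 7 members the shares of the groups did not overlap, while the family total did. In CPM the groups were apart for 5 of the 7, against 51.3% of all tested genes. Shares of this kind were not computed for other genes, so the count for shares has no background beside it. Shares within a library add up to the whole, so a change of some members shifts the others.

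Ratios within a library compare members directly. The count ratio of Ms4a4a to Ms4a7 was 1.06, 1.08 and 1.10 in thrombocytopenic libraries, against 0.593, 0.607 and 0.610 in control libraries, a log2 difference of 0.84. That of Ms4a4a to Ms4a4c was 0.656, 0.668 and 0.689 in thrombocytopenic libraries, against 0.431, 0.439 and 0.428 in control libraries, a log2 difference of 0.63. Both ratios were higher in every thrombocytopenic library. Ms4a6b to Ms4a6d (log2 difference 0.16) and Ms4a6c to Ms4a6d (0.13) were also higher in 3 of 3 thrombocytopenic libraries than in any control library. For each of these 4 ratios the exact permutation p was 0.1, two-sided, the smallest that 3 against 3 libraries allow, and 0.125 adjusted over the 5 ratios tested. The ratio of Ms4a6b to Ms4a6c was 0.315, 0.313 and 0.317 in thrombocytopenic libraries, against 0.309, 0.317 and 0.301 in control libraries. These overlapped (log2 difference 0.029; exact permutation p = 0.3, also 0.3 adjusted), so unequal change of these 2 paralogs was not detectable here.

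**Figure D3:**
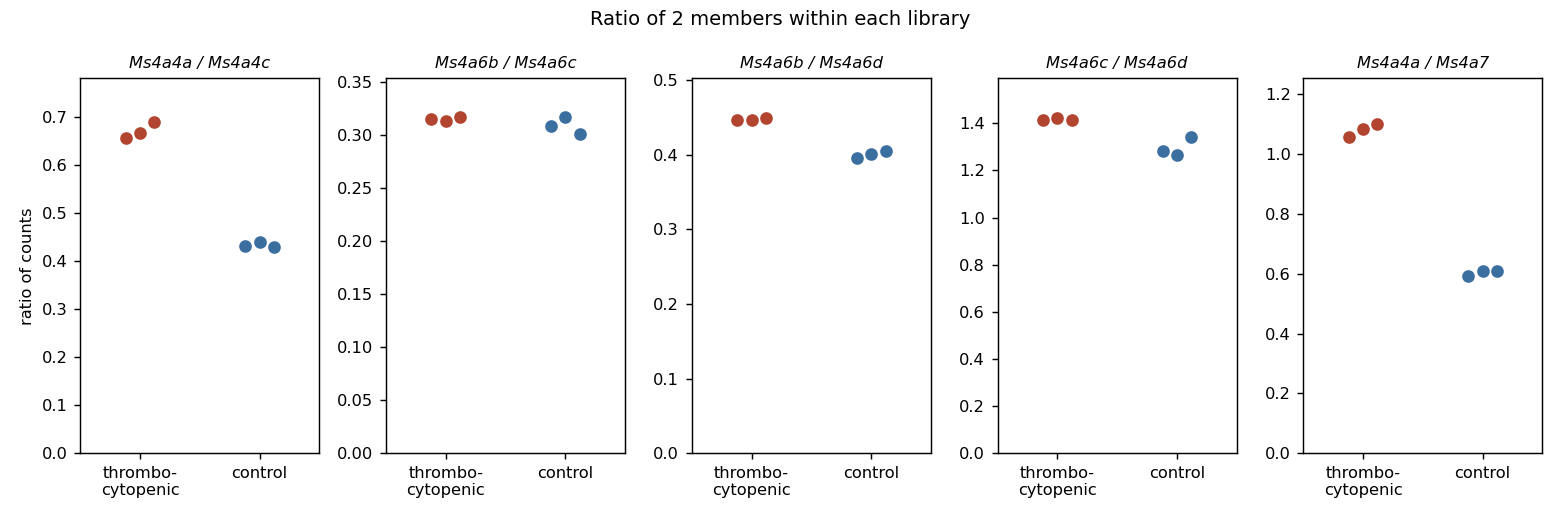
Ratio of the counts of 2 members within each library (y axis, from 0; points, 3 thrombocytopenic and 3 control libraries per panel). The ratios with Ms4a4a on top differ most between groups (log2 differences 0.84 and 0.63), and that of Ms4a6b to Ms4a6c overlaps.

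The genes with the most similar pattern were found by Euclidean distance of the centred log2 CPM over the 6 libraries, among 10247 other genes with a mean of at least 1 CPM. Nearest to Ms4a4a was Mapkapk2, a kinase gene downstream of p38 (distance 0.040, log2 fold change 0.44), and nearest to Ms4a14 was Mylip, a ubiquitin ligase gene that acts on the LDL receptor (0.053, -1.35). Nearest to Ms4a7 was Ttc7 (0.054, -0.39), and to Ms4a4c Dcun1d2 (0.027, -0.16). The nearest genes of Ms4a6b, Ms4a6c and Ms4a6d were Vbp1, Zfp101 and Vps26a, with log2 fold changes of 0.098, 0.077 and -0.073. Distances over 6 libraries in 2 groups mostly repeat the group difference and are a description.

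Of the other 14 MS4A genes, 11 had under 10 counts in every library, and 4 of these had no count at all. Ms4a1 (CD20) had 1 count in each group, and Ms4a3, a gene of granulocyte-monocyte progenitors, had 1 count in thrombocytopenic and 3 in control libraries. Ms4a8a was at 1.13 ± 0.435 CPM in thrombocytopenic and 0.819 ± 0.145 CPM in control libraries. It missed the threshold (log2 fold change 0.47, edgeR adjusted p = 0.159), but passed it without thrombocytopenic replicate 2 (0.73, edgeR adjusted p = 0.0231). Ms4a4b, a T cell gene, was at 3.05 ± 0.317 CPM in thrombocytopenic and 3.60 ± 0.366 CPM in control libraries and did not pass (edgeR adjusted p = 0.182). It shares sequence with Ms4a4c, as given above, and in these libraries the T and NK cell genes Cd3d, Cd3e, Cd3g and Ncr1 had no count. Summed over the 9 T and NK cell markers other than Ms4a4b the level was 0.811 to 0.991 CPM in thrombocytopenic and 1.04 to 1.88 CPM in control libraries. Of these, 2 were tested: Cd8a was lower (log2 fold change -1.54) and Lck did not pass.

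Ms4a2, the IgE receptor beta chain gene, was the 1 other MS4A gene that passed the test. It had 0, 0 and 1 counts in thrombocytopenic libraries, against 14, 35 and 18 in control libraries, a ratio of control over thrombocytopenic of 77.3 (95% exact counting interval 13.4 to 3097, which covers counting error only). Without thrombocytopenic replicate 3, which held the only count, Ms4a2 was at least 16.8-fold lower, taking 3 counts over the whole group as the floor. Of the other basophil and mast cell markers, 4 of 5 tested fell in the same libraries and none rose, with a median log2 fold change of -3.78 against -0.00077 over all genes. Over all tested genes, 22.7% were lower. Prss34, a basophil protease gene, was at 0.099 ± 0.061 CPM in thrombocytopenic and 2.64 ± 0.672 CPM in control libraries, and Mcpt8 at 0.118 ± 0.059 and 2.27 ± 0.273 CPM. Gata2 (log2 fold change -2.21) and Cd200r3 (-3.78) were the other 2 that fell. Hdc, histidine decarboxylase, did not pass, at 94.2 ± 2.80 CPM in thrombocytopenic and 91.6 ± 1.70 CPM in control libraries. It made up most of the sum over the 7 markers other than Ms4a2, which was 92.6 to 98.0 CPM in thrombocytopenic and 97.8 to 100.1 CPM in control libraries and overlapped. The part of these cells in the difference of Ms4a2 was not tested.

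Tmem176a and Tmem176b, membrane protein genes related in structure to the MS4A family, were both higher in thrombocytopenic libraries. Tmem176b was at 144 ± 6.30 CPM in thrombocytopenic and 86.5 ± 6.74 CPM in control libraries (log2 fold change 0.74, SE 0.050; edgeR adjusted p = 2.14e-08). Tmem176a was at 81.1 ± 3.04 and 58.3 ± 3.62 CPM (0.48, SE 0.040).

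The MS4A genes form 1 block on mouse chromosome 19, in which the order of the members is Ms4a14, Ms4a7, Ms4a4a, Ms4a4c, Ms4a6c, Ms4a6b and Ms4a6d (RefSeq, GRCm38.p6). Ms4a7 and Ms4a4a are next to each other and differed in opposite directions. Of the 12 tested genes nearest to the block, 6 on each side, 2 were higher, 3 lower and 7 not called, with a median log2 fold change of -0.043. Over all tested genes, 22.4% were higher and 22.7% lower, so these counts are near the general share. The lower ones were Stx3, a gene of vesicle fusion, at 5.38 ± 0.909 CPM in thrombocytopenic and 14.4 ± 0.456 CPM in control libraries (log2 fold change -1.41), Dtx4 (-0.57) and Mpeg1, the gene of the macrophage pore protein perforin-2 (-0.14). The higher ones were Osbp, a sterol-binding protein gene (0.14), and A430093F15Rik (0.51). The last lost its call with DESeq2 (log2 fold change 0.52; adjusted p = 0.0670), without thrombocytopenic replicate 1 (0.52; 0.0508) or 3 (0.51; 0.0564) and without control replicate 1 (0.43; 0.0881) or 3 (0.49; 0.0645). Mrpl16, Patl1, Ccdc86, Prpf19, Tmem109, Tmem132a and Slc15a3 did not pass. Slc15a3 passed without thrombocytopenic replicate 2 (-0.086, adjusted p = 0.00706) and with upper quartile scaling (-0.074; 0.0213), with which Ccdc86 passed too (-0.074; 0.0440). Within the block, 4 other genes were tested. AW112010 (singled out with its values known) was at 88.7 ± 4.32 CPM in thrombocytopenic and 143 ± 6.11 CPM in control libraries (log2 fold change -0.69). Gm5511, BE692007 and Gm8369 did not pass.

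Receptors, adaptors and tetraspanins that have been described with MS4A proteins all differed where they could be tested: 6 of 13 tested genes were higher and 7 lower, against 22.4% and 22.7% of all tested genes, with a median log2 fold change of -0.24. Cd9, a tetraspanin gene, was at 112 ± 2.09 CPM in thrombocytopenic and 177 ± 2.51 CPM in control libraries (log2 fold change -0.66, SE 0.030; edgeR adjusted p = 9.15e-26). Clec7a, which encodes dectin-1, was at 17.7 ± 2.04 CPM in thrombocytopenic and 29.9 ± 0.649 CPM in control libraries (-0.75, SE 0.060; edgeR adjusted p = 4.06e-15). Trem2, the lipid receptor gene tied to MS4A4A in human data, was at 148 ± 3.40 and 177 ± 4.41 CPM (-0.26, SE 0.030). These 3 genes were lower in libraries in which Ms4a4a was higher. Syk, the kinase that acts below dectin-1 and Fc receptors, was at 1034 ± 15.5 CPM in thrombocytopenic and 794 ± 5.12 CPM in control libraries (0.38). The signalling adaptor genes Tyrobp (0.082) and Fcer1g (0.069) were slightly higher. Among IgG receptors, Fcgr3 (0.48) and Fcgr2b (0.21) were higher, and Fcgr1 (-0.34) and Fcgr4 (-0.24) lower. Vsig4 had no count in any library.

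**Figure D4:**
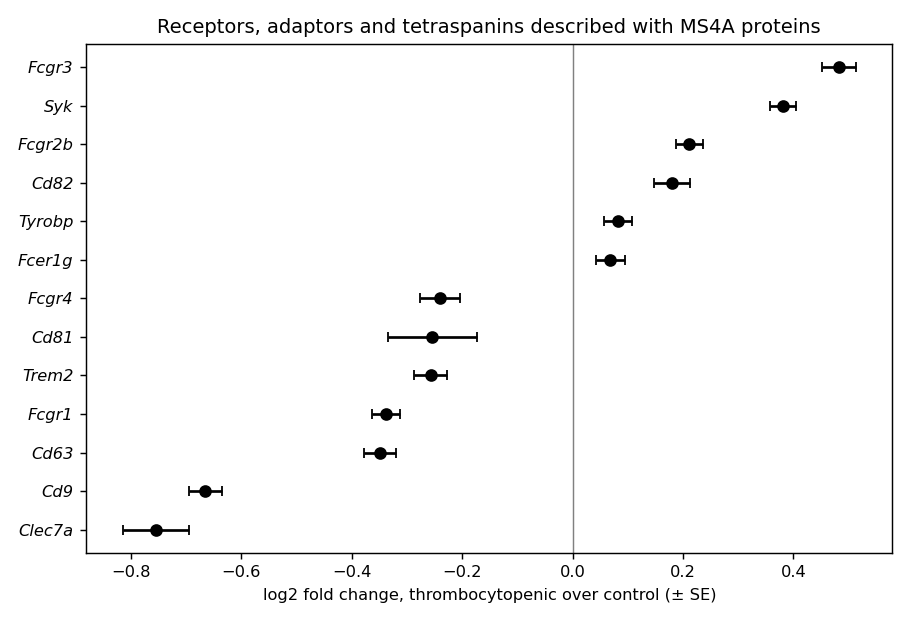
Log2 fold change of thrombocytopenic over control libraries (x axis, ± SE) for the 13 tested receptor, adaptor and tetraspanin genes described with MS4A proteins, ordered by value. All passed an adjusted p of 0.05; they run from -0.75 for Clec7a to 0.48 for Fcgr3.

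Genes of alternatively activated macrophages, the state in which human MS4A4A is known to be high, did not all share the direction of Ms4a4a. Of 18 tested genes 3 were higher (Mrc1, Il4ra and Ccl24), 9 lower and 6 not called, with a median log2 fold change of -0.16. The shares over all tested genes were 22.4% higher and 22.7% lower. Mrc1, the mannose receptor gene, was at 276 ± 3.93 CPM in thrombocytopenic and 162 ± 13.5 CPM in control libraries (log2 fold change 0.77, SE 0.048). Fkbp5, a glucocorticoid target, was at 18.6 ± 1.58 and 28.7 ± 0.563 CPM (-0.62). Tgm2 (-0.34) and Chil3 (-0.41) were lower. Arg1, arginase 1 and singled out with its values known, stood at 26.8 ± 7.80 CPM in thrombocytopenic and 125 ± 5.51 CPM in control libraries (-2.20, SE 0.200).

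Among 16 myeloid genes at human Alzheimer risk loci, the group of loci to which the MS4A cluster belongs, 5 were higher, 7 lower and 4 not called, with a median log2 fold change of -0.045. The shares over all tested genes were 22.4% higher and 22.7% lower. Apoe, apolipoprotein E, had the smallest p, with a log2 fold change of -1.45. Grn, progranulin, was at 1500 ± 36.4 CPM in thrombocytopenic and 1984 ± 22.0 CPM in control libraries (-0.40, SE 0.023). Inpp5d, a lipid phosphatase gene, was at 82.5 ± 3.34 and 114 ± 3.16 CPM (-0.47), and Abi3 at 4.50 ± 0.515 and 12.1 ± 0.900 CPM (-1.41). Spi1, which encodes PU.1, a transcription factor of myeloid cells, was singled out with its values known and stood at 722 ± 8.91 and 600 ± 16.2 CPM (0.27).

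The files summed to 24842319 to 37552029 counts per library. Beside the marker counts that follow, 22.4% of all tested genes were higher and 22.7% lower. Of the 14 monocyte markers, all tested, 9 were higher and 4 lower. The list had a sum of 16988 to 17164 CPM in thrombocytopenic and 14911 to 15386 CPM in control libraries. Lyz2 made up most of that sum, at 13705 ± 115 CPM in thrombocytopenic and 11986 ± 260 CPM in control libraries. Adgre4 (log2 fold change 1.12) was higher, and Cx3cr1 (-2.19), Plac8 (-1.84) and F13a1 (-0.56) were lower. Macrophage markers were present too, summing to 5460 to 5680 CPM in thrombocytopenic and 5293 to 5465 CPM in control libraries, with 3 of 12 higher and 9 lower. The higher ones were Adgre1, Maf (0.25) and Marco (0.31), and Adgre1, at 3285 ± 90.2 CPM in thrombocytopenic and 2712 ± 82.5 CPM in control libraries, made up most of the sum. Axl (-1.12), Mertk (-1.51), C1qc (-0.51) and C1qb (-0.41) were lower beside Ms4a7 and Ms4a14, and the part of such cells in these differences was not tested. Sums over B cell markers were 2.38 to 2.63 CPM in thrombocytopenic and 5.97 to 6.71 CPM in control libraries, where Cd22 fell (-2.19) and Cd79b did not pass. Progenitor markers summed to 2.99 to 4.39 CPM in thrombocytopenic and 6.08 to 7.76 CPM in control libraries, with Kit (-1.15) and Cd34 (-0.72) lower. Dendritic cell markers summed to 21.3 to 24.9 CPM in thrombocytopenic and 39.6 to 45.7 CPM in control libraries, with 5 of 6 lower and none higher, among them Ccr7 (-0.88), Siglech (-2.14), Flt3 (-1.29) and Itgax (-0.53). Neutrophil markers summed to 517 to 522 CPM in thrombocytopenic and 384 to 403 CPM in control libraries, and their median log2 fold change was -0.096. Most of the sum was Mmp8 (log2 fold change 0.51) and Csf3r (0.17), which with Mmp9 (1.03) were the 3 of 8 tested that were higher. S100a8 (7.40 ± 0.912 CPM in thrombocytopenic, 8.29 ± 0.112 CPM in control libraries), S100a9, Ltf and Camp did not pass. Ngp was lower (-0.90), a call that was lost without thrombocytopenic replicate 1 (adjusted p = 0.128) or 2 (0.115) and without control replicate 1 (0.154) or 3 (0.0835). Platelet markers split, with 2 of 6 tested higher, 4 lower and a median log2 fold change of -1.08. Pf4 (0.24) and Ppbp (0.66) were higher, while Nrgn had 2 counts in thrombocytopenic and 332 in control libraries, Gp9 had 0 and 41, and Itga2b (-1.27) and Itgb3 (-0.90) were lower.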

How the data were processed

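The authors deposited unnormalised gene counts, in 1 file for each library. The tools named in the submitters' processing notes are Salmon 1.5.2, featureCounts of Subread 2.0.1, STAR 2.7.9a and fastp 0.23.1; what each did, the build, the annotation and the counting settings, strand included, are not stated in what was used here. Per the labels' protocols, libraries were made from polyadenylated RNA with a stranded kit.

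Counts were analysed with R 4.3.3 and edgeR 4.0.16: TMM factors (0.9943 to 1.002), filterByExpr with a minimum count of 10 and a total of 15, a robust quasi-likelihood fit with group as the only term, two-sided, and Benjamini-Hochberg adjustment over 12488 genes at 0.05. The SE is the absolute log2 fold change over the square root of F. CPM are TMM-scaled. Sums over lists have no test. Ratios of members (0.5 added to counts) were compared by exact permutation; patterns used log2(CPM + 0.1). Alternatives were other scalings, no filter, DESeq2 1.42.0, limma-voom (limma 3.58.1), a replicate block and leaving out each library. The fits were tested on simulated data. Coding sequences were aligned with Biopython 1.88.

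Members, lists and motifs were chosen with earlier results of these data known. Named are all members, up to 4 genes per list with the smallest p, all genes of counts of 5 or fewer, other MS4A genes with at least 10 counts in a library, the 12 nearest neighbours and the nearest patterns; others are marked as chosen after their values were seen or given as contrast within a list. Some nearest-pattern genes are left out for brevity. The depth leaves genes under about 1 CPM with few counts. A gene of a marker list is not reported here.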

Additional observations from a re-analysis of the deposited data

How the results depend on the processing

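No member changed direction under any of the 13 alternatives, and Ms4a4a, Ms4a4c, Ms4a6b, Ms4a7 and Ms4a14 kept their calls in all of them. Ms4a6c passed the threshold with RLE scaling (log2 fold change 0.067), without a filter (0.064) and with limma-voom (0.068), and ranged from 0.026 to 0.096 when a library was left out. Ms4a6d did not pass with DESeq2 (-0.063) and ranged from -0.087 to -0.048 when a library was left out. The cause was not tested. The number of genes called was 5626, 4990 to 5427 when a library was left out, 4720 with DESeq2 and 5402 with a replicate block. Upper quartile scaling gave 2362 higher and 3164 lower calls, against 2792 and 2834. The replicate block changed no member's call. The replicate numbers were not shown to pair the libraries: deviations of same-numbered libraries correlated at -0.089 to -0.013, and 0 of 6 libraries correlated best with their own number. All 5 member ratios kept their direction with 5 added to the counts and when each library was left out. Their p could not pass 0.05 in any setting, as 0.1 is the smallest that all 6 libraries allow. Leaving one out lowers the number of regroupings further. Genes that did not pass in the main setting changed sign in some: Prpf19 was at -0.018 with upper quartile scaling and ranged from -0.018 to 0.029 when a library was left out. The same ranges were -0.19 to 0.10 for Cd79b, -0.60 to 0.34 for Lck, -0.052 to 0.0031 for Tmem109, -0.067 to 0.036 for Mrpl16 and -0.085 to 0.0082 for Patl1. Depth limits the MS4A genes under about 1 CPM, such as Ms4a8a.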
